A study of Mus musculus with 12 samples.

Results

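The genes described here encode the mucus and secretory products of intestinal goblet cells, together with a transcription factor of these cells. They were taken by symbol from a list of 10 genes, of which 9 had a row among the 14244 genes of the expression table: *Tff3*, *Clca1*, *Fcgbp*, *Zg16*, *Agr2*, *Spdef*, *Retnlb*, *Spink4* and *Muc13*. The tenth, *Muc2*, was not analysed here. Gut epithelial cells had been collected by the authors from 5 wild type (WT) and 7 *Chd8L*+/- mice, one library per mouse. All were male C57BL/6 littermates aged 8 weeks. *Chd8L*+/- mice carry, throughout the body, 1 *Chd8* allele in which internal exons of the long isoform are deleted, and the WT mice carry no engineered allele according to the labels. The stretch of gut that each preparation covers is not given in the labels, and the cells were detached from the tissue without sorting. A value is a normalized count, the reads counted on a gene divided by the size factor of its library.

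Goblet cells fill secretory granules with gel-forming mucin and release them onto the epithelium, where the mucin unfolds into the mucus that keeps bacteria away from the cells. Smaller proteins are released with it and bind the mucin, process it, or act on bacteria. Goblet cells arise from secretory progenitors under ATOH1 and mature under SPDEF, and type 2 cytokines, whose release can start from tuft cells, are known to expand them.

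The regulatory sequence next to the start of a member is shown for those with an entry in the RefSeq promoter table of GRCm38.p6, which held 4 of the 9 genes. The windows are the 250 bases before the annotated start, at chr7:28070986-28071235 (+ strand) for *Fcgbp*, chr16:33793787-33794036 (+ strand) for *Muc13*, chr12:35992675-35992924 (+ strand) for *Agr2* and chr17:27728952-27729201 (- strand) for *Spdef*. The 4 genes differ in role, as a mucus protein, a membrane mucin, a folding enzyme and a transcription factor. They are written 5′ to 3′ on the strand of the gene. Capitals mark CAGNTG, a form of the E-box that bHLH factors such as ATOH1 bind, and GGATG, which holds the core bound by ETS factors such as SPDEF, on either strand.
Fcgbp promoter: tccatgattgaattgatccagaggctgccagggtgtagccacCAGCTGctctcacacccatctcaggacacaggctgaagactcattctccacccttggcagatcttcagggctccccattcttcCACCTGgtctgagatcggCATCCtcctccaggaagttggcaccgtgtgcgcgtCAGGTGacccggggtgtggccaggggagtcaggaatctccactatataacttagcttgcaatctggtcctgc
Muc13 promoter: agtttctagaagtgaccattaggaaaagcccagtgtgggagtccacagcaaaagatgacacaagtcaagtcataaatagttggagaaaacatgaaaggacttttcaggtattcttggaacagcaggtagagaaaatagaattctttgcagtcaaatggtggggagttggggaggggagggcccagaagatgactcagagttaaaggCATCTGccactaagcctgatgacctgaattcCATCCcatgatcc
Agr2 promoter: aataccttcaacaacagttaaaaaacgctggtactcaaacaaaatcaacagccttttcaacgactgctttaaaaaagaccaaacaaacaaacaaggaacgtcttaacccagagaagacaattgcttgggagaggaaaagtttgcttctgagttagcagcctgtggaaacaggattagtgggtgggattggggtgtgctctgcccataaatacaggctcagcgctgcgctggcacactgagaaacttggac
Spdef promoter: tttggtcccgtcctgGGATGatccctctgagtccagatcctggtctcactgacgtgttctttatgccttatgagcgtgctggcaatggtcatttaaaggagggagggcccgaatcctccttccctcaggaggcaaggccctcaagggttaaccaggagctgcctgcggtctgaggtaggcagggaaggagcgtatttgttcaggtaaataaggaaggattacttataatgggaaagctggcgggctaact

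The *Fcgbp* window held 3 matches to CAGNTG and 1 to GGATG, and that of *Muc13* held 1 of each. *Muc13* has another RefSeq start, whose window (chr16:33794239-33794488, not shown) held 1 match to CAGNTG and 0 to GGATG and TGTTTNC. The *Spdef* window held 0 matches to CAGNTG and 1 to GGATG, and the *Agr2* window held 0 of both. The forkhead form TGTTTNC, also searched on both strands and not capitalised, was found 1 time each in *Agr2* and *Muc13*. The TATA box form TATAAA was found in 0 of these 4 windows. Of 32851 RefSeq promoters of the same length, 44.8% held CAGNTG, 37.3% GGATG, 17.8% TGTTTNC and 12.4% TATAAA, so a match is common and says nothing about binding.

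Libraries held 15691662 to 20761315 reads on genes. Epithelial identity was clear in all 12 libraries, since the adhesion gene *Epcam* stood at 27667 normalized counts or more and the microvillus gene *Vil1* at 26439 or more. The targeted gene *Chd8* stood at 823 to 1050 in WT and at 1084 to 1483 in *Chd8L*+/- libraries, higher in all 7 than in any WT library (exact permutation p = 0.00126, the smallest the test allows). These counts cover the whole gene and do not separate the deleted exons, so they do not check the deletion, and the genotypes are used as labelled. WT replicate 2 stood apart from the other WT libraries on the first principal component of the whole table, at -40.97 against 26.18 to 67.48, and among the *Chd8L*+/- libraries at -42.74 to -0.26. Genotype results are therefore given with and without it. With all libraries, limma (log2(value + 1), Benjamini-Hochberg adjustment over 12808 genes) called 3 genes at an adjusted p of 0.05 or less. It called 3534 once WT replicate 2 was left out, and 0 to 8 when any other single library was. WT replicate 2 was singled out on these same values, where it lies among the *Chd8L*+/- libraries. Leaving it out therefore parts the groups further, and calls made without it are no separate support.

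Within the transcriptome the members were abundant. *Muc13* ranked 23rd of 14244 genes by mean normalized count, *Fcgbp* 25th and *Clca1* 53rd. Per kilobase of exon, which allows genes to be compared, the mean level over the 12 libraries was highest for *Tff3* (27094 normalized counts per kilobase), followed by *Spink4* (19429), *Muc13* (18888), *Zg16* (14576), *Clca1* (8764), *Fcgbp* (5307), *Agr2* (3425), *Retnlb* (878) and *Spdef* (226). *Agr2* exceeded *Retnlb* in 12 of 12 libraries and *Muc13* exceeded *Zg16* in 11. *Spink4* exceeded *Muc13* in 4 of 5 WT but in 1 of 7 *Chd8L*+/- libraries. By the mean per kilobase *Spink4* ranked 2 among the 9 in WT (29884) and 4 in *Chd8L*+/- libraries (11961), behind *Tff3*, *Muc13* (20166) and *Zg16* (14762). Summed over the 9 genes, goblet products took 0.845% to 1.48% of a WT library and 0.764% to 1.48% of a *Chd8L*+/- library.

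Between genotypes the members stood differently from one another. *Spink4* and *Clca1* were lower on average in *Chd8L*+/- than in WT libraries, *Retnlb* and *Tff3* also had lower means, and *Fcgbp*, *Zg16*, *Agr2*, *Spdef* and *Muc13* had log2 fold changes between -0.12 and 0.21. With all 12 libraries, 0 of the 9 members passed the adjusted p in limma, beside 0.0234% of all genes tested. On the recovered reads, edgeR called 0 of the 9, beside 0.039% of all genes. DESeq2 called 2 (*Spink4* and *Clca1*, both lower), beside 5.69% of all genes, or 4.07% for the lower ones. By an unadjusted limma p of 0.05 or less, 3 members were lower (*Spink4*, *Clca1* and *Retnlb*) and 0 higher, where 11.8% of all genes were lower and 12.5% higher. The groups overlapped for all 9 members, while 0.515% of all genes tested had groups that did not overlap. Without WT replicate 2, *Spink4* and *Clca1* passed the adjusted p, 2 of 9 members, both lower, where 13.6% of all genes were called lower and 14% higher. In sign, 7 of 9 members had a log2 fold change below 0, beside 48.6% of all genes. The median log2 fold change of the members was -0.12, against 0.01 for all genes tested.

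**Figure D1:**
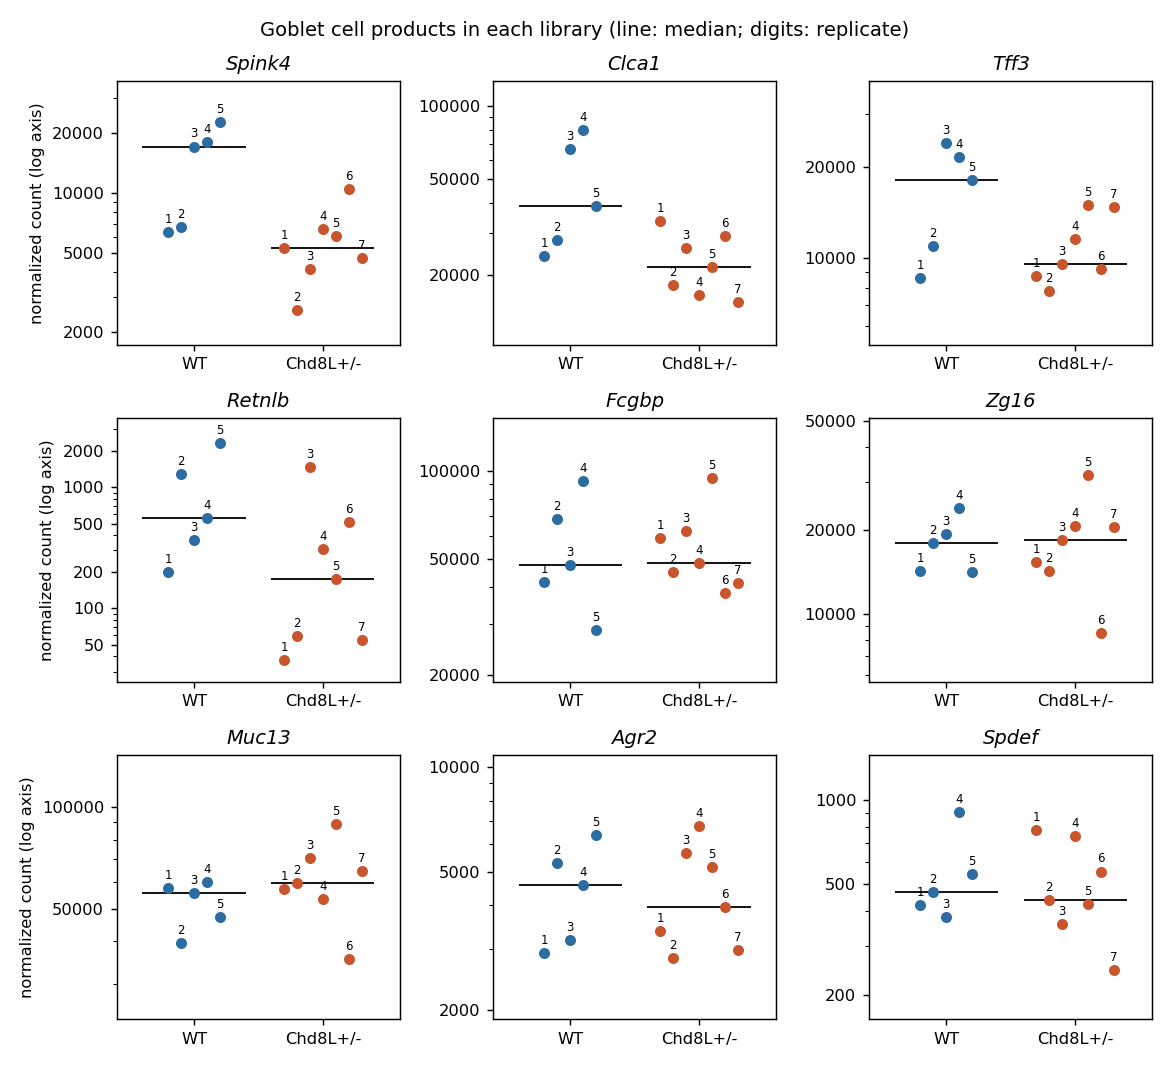
Normalized count of each goblet cell product (log axis) in every library, with WT in blue (n = 5) and Chd8L+/- in orange (n = 7), replicate numbers beside the points and group medians as lines. For Spink4, Clca1 and Tff3, WT replicates 3, 4 and 5 lie above all 7 Chd8L+/- libraries and WT replicates 1 and 2 lie among them.

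*Spink4* encodes a small secreted protein of the Kazal protease inhibitor family. In WT replicates 1 to 5 its normalized count was 6347, 6778, 17166, 18083 and 22899. In *Chd8L*+/- replicates 1 to 7 it was 5279, 2596, 4153, 6583, 6070, 10533 and 4725. Every *Chd8L*+/- library was under the WT median and 5 of them below the lowest WT library, but *Chd8L*+/- replicate 4 lay between WT replicates 1 and 2 and *Chd8L*+/- replicate 6 lay above both. The means were 14255 ± 7353 (SD, n = 5) and 5705 ± 2498 (SD, n = 7), and the fitted log2 fold change was -1.25 (SE 0.37, 95% interval -2.05 to -0.44). The limma p adjusted over all genes was 0.121. The exact permutation test of *Spink4* alone, two-sided and not adjusted for the 9 members tested, gave p = 0.0177. Without WT replicate 2 the log2 fold change was -1.47. The adjusted p from limma was then 0.0133, against 0.108 to 0.344 when any other single library was left out. With DESeq2 on the recovered reads of all 12 libraries *Spink4* also passed, at -1.32 and an adjusted p of 0.0142.

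*Clca1* encodes a secreted metalloprotease that acts on the mucin network. The deposited symbols follow the current nomenclature, in which *Clca1* is the goblet cell gene and *Clca3a1*, *Clca3a2* and *Clca3b* are separate rows. Its normalized count was 24029, 27869, 66347, 79539 and 38871 in WT replicates 1 to 5. It was 33602, 18149, 25925, 16646, 21626, 29132 and 15495 in *Chd8L*+/- replicates 1 to 7. As for *Spink4*, the 3 highest libraries were WT replicates 3 to 5, and no *Chd8L*+/- library reached the WT median. WT replicates 1 and 2 lay inside the *Chd8L*+/- range. The means were 47331 ± 24455 (SD, n = 5) and 22939 ± 6839 (SD, n = 7), and the log2 fold change was -0.94 (SE 0.33, 95% interval -1.64 to -0.24), with a limma adjusted p of 0.128 and an exact permutation p of 0.0202. The values without WT replicate 2 were -1.09 and an adjusted p of 0.027 from limma, and DESeq2 with all libraries gave -1.04 and an adjusted p of 0.0227. Leaving out any other single library gave an adjusted p from limma of 0.142 to 0.347.

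*Tff3* encodes trefoil factor 3, a small peptide secreted with mucin that is known for its part in epithelial repair. WT replicates 1 to 5 held 8645, 11026, 24046, 21671 and 18104 normalized counts of *Tff3*. *Chd8L*+/- replicates 1 to 7 held 8743, 7792, 9581, 11615, 15010, 9243 and 14814. The arrangement was that of *Spink4* and *Clca1*, with WT replicates 3 to 5 above every *Chd8L*+/- library and WT replicates 1 and 2 among them. The means were 16698 ± 6666 (SD, n = 5) and 10971 ± 2929 (SD, n = 7). The log2 fold change of -0.54 (SE 0.27, 95% interval -1.12 to 0.04) did not pass limma at an adjusted p of 0.23, nor the exact permutation test (p = 0.0896). It was -0.67 when WT replicate 2 was left out, with an adjusted p from limma of 0.089.

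The bulk libraries cannot tell fewer goblet cells from less RNA per cell for any of these genes. The WT replicates in which *Spink4*, *Clca1* and *Tff3* were high were also those with the most RNA of tuft cells, a sparse epithelial cell type that senses gut contents. The 14 tuft cell markers together came to 23369 to 34830 normalized counts in WT replicates 3 to 5, and to 2065 to 15816 in the other 9 libraries. All 14 had negative log2 fold changes (median -1.87). By an unadjusted limma p of 0.05 or less 14 of 14 were lower, beside 11.8% of all genes. Of the defining tuft markers, *Dclk1* was detected in all 12 libraries (323 to 3670). Markers of stem and cycling cells ran the other way, with 14 of 14 above 0 and summed counts of 7251 to 11892 in WT replicates 3 to 5 against 14756 to 26854 in the rest. The part of either cell type in the result was not tested.

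*Retnlb* encodes a resistin-like molecule released into the lumen that acts on bacteria. Its count was 199, 1285, 364, 554 and 2318 in WT replicates 1 to 5. In *Chd8L*+/- replicates 1 to 7 it was 37.1, 58.7, 1465, 307, 173, 518 and 54.4. This gene varied far more than any other member, 62.4-fold from the lowest to the highest library against 2.38-fold to 8.82-fold for the other 8. WT replicates 2 and 5 and *Chd8L*+/- replicate 3 were high, and *Chd8L*+/- replicates 1, 2 and 7 were lowest. The log2 fold change was -1.90 (SE 0.87, 95% interval -3.76 to -0.04), with a limma p of 0.0462, an adjusted p of 0.198 and an exact permutation p of 0.0896. Leaving out WT replicate 2 gave -1.66 (95% interval -3.69 to 0.37). The size of the difference depended on the method, at -1.33 in edgeR, -1.34 in DESeq2 and -1.13 with the library letter as a block, and 0 of the 24 alternatives brought *Retnlb* past the adjusted p.

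The 3 libraries with the most *Retnlb* were also the 3 with the most *Mptx1*, a mucosal pentraxin gene listed among the colon markers. *Mptx1* stood at 18533 in WT replicate 2, 33109 in WT replicate 5 and 9449 in *Chd8L*+/- replicate 3, against 370 to 2881 in the other 9 libraries. The posterior homeobox gene *Hoxb13* was at 271, 123 and 107 in those libraries, but also at 124 in *Chd8L*+/- replicate 6, and 3.14 to 76.4 elsewhere. The summed level of the colon list was 18061 to 50359 in WT and 13783 to 43531 in *Chd8L*+/- libraries, and 3 of its 10 tested genes had a negative log2 fold change. By library this sum did not single out the 3 libraries rich in *Retnlb*. It was 33311 in WT replicate 2, 50359 in WT replicate 5 and 36489 in *Chd8L*+/- replicate 3, against 35875 in WT replicate 4, 43531 in *Chd8L*+/- replicate 4 and 40180 in *Chd8L*+/- replicate 5. The part of gut position in the level of *Retnlb* was not tested.

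*Fcgbp* encodes a large mucus protein built of repeated von Willebrand D domains that is found bound to mucin. Its count ran from 28547 to 92427 in WT libraries (mean 55806 ± 25071 SD, n = 5) and from 38409 to 94744 in *Chd8L*+/- libraries (mean 55639 ± 19377 SD, n = 7). The groups overlapped almost wholly. The log2 fold change was 0.05, with a 95% interval of -0.66 to 0.76, so that a fold between 0.634 and 1.69 remained possible at this spread. Of the 75-base windows along the *Fcgbp* transcript, 2.99% also occur in the neighbouring paralog *9530053A07Rik*, and for those reads the 2 genes cannot be told apart. *9530053A07Rik* had a log2 fold change of 0.01.

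*Zg16* encodes a lectin-like granule protein that binds the wall of Gram-positive bacteria. It stood at 14198 to 24038 in WT (mean 17995 ± 4082 SD, n = 5) and at 8504 to 31867 in *Chd8L*+/- libraries (mean 18556 ± 7244 SD, n = 7). Both extremes belonged to *Chd8L*+/- mice, replicate 6 being the lowest and replicate 5 the highest. The log2 fold change was -0.02 (95% interval -0.62 to 0.57).

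*Muc13*, a mucin anchored in the apical membrane that other epithelial cells also express, was the only member besides *Fcgbp* with a positive value, at 0.21 (SE 0.26, 95% interval -0.36 to 0.78). WT libraries held 39539 to 60069 (mean 51942 ± 8447 SD, n = 5) and *Chd8L*+/- libraries 35422 to 88666 (mean 61265 ± 16321 SD, n = 7). In 3 *Chd8L*+/- libraries *Muc13* exceeded the highest WT value, and *Chd8L*+/- replicate 6 lay below the lowest. An antisense gene, *Gm15657*, overlaps *Muc13* and shares 4.22% of its windows, and use of strand in counting is not given in the sources used here.

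*Agr2*, a protein disulfide isomerase that mucin folding in the endoplasmic reticulum requires, stood at 2922, 5301, 3183, 4574 and 6382 in WT replicates 1 to 5. In *Chd8L*+/- replicates 1 to 7 it stood at 3375, 2829, 5663, 6748, 5157, 3953 and 2980. High and low libraries occurred in both genotypes, and the log2 fold change was -0.04 (SE 0.25, 95% interval -0.58 to 0.51). *Spdef*, the ETS factor of goblet cell maturation, was the least abundant member per kilobase, at 379 to 904 in WT (mean 542 ± 211 SD, n = 5) and 246 to 779 in *Chd8L*+/- libraries (mean 506 ± 197 SD, n = 7). The lowest value was that of *Chd8L*+/- replicate 7 and the highest that of WT replicate 4. Its log2 fold change was -0.12 (SE 0.28, 95% interval -0.73 to 0.49). The intervals of *Fcgbp*, *Zg16*, *Muc13*, *Agr2* and *Spdef* all contain 0 and do not show that their levels were equal.

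**Figure D2:**
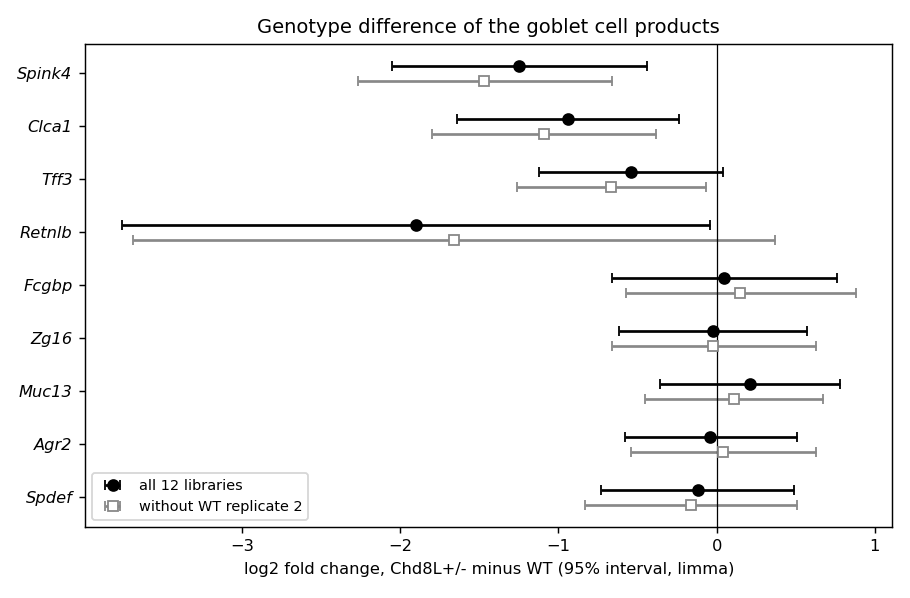
Log2 fold change (Chd8L+/- minus WT, log2(value + 1) scale) of each member with its 95% interval from limma, for all 12 libraries (filled circles) and without WT replicate 2 (open squares). Spink4 and Clca1 lie below 0 with both sets, at -1.25 and -0.94 and at -1.47 and -1.09, and the 5 lowest rows are centred near 0.

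Because library scaling affects all genes of a library alike, each member was also set against the mean log2 value of the other 8 in the same library. The difference between genotypes on this scale is the member's own difference minus that of the other 8, and the latter was negative for every member (-0.33 to -0.60), with *Retnlb*, *Spink4* and *Clca1* contributing most. For *Agr2* the value was 0.53 (exact permutation p = 0.0126), made up of -0.04 for *Agr2* itself and -0.57 for the other 8, so it restates the lower levels of those genes and is no rise of *Agr2*. For *Muc13* it was 0.80 (exact p = 0.0328), made up of 0.21 and -0.60. *Spink4* was lower relative to the rest by -0.83, which missed the threshold (exact p = 0.0518). The difference was 0.63 for *Fcgbp* (exact p = 0.0758), 0.54 for *Zg16* (exact p = 0.122), -0.49 for *Clca1* (exact p = 0.159) and -0.04 for *Tff3* (exact p = 0.884). For *Retnlb* it was -1.57 (exact p = 0.146) and for *Spdef* 0.43 (exact p = 0.239). These 9 p-values are not adjusted and are not independent, since each member is also part of the reference of the other 8. Leaving out 1 library at a time, the p of *Agr2* stayed between 0.00909 and 0.0364. That of *Muc13* rose to 0.0545 to 0.0788 without any one of WT replicates 2 to 5 or *Chd8L*+/- replicates 1, 2, 5 and 7. *Spink4* passed without WT replicate 2 (exact p = 0.0182) or *Chd8L*+/- replicate 6 (exact p = 0.0173), and *Fcgbp* did so as well (exact p = 0.0455 and p = 0.0411). *Zg16* passed without *Chd8L*+/- replicate 6 (exact p = 0.00866) and *Retnlb* without *Chd8L*+/- replicate 3 (exact p = 0.0498).

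**Figure D3:**
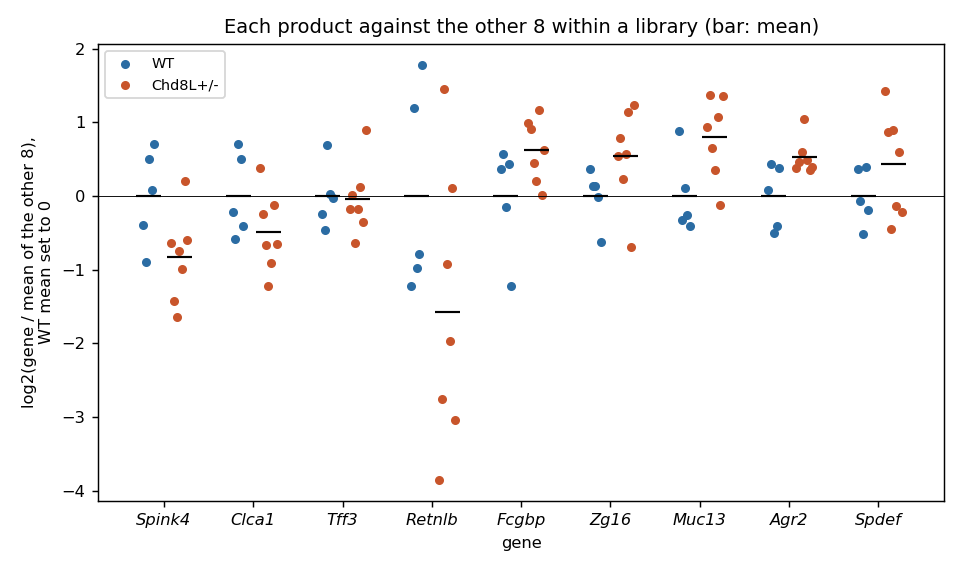
Log2 value of each member minus the mean log2 value of the other 8 in the same library, with the WT mean set to 0 (y axis, log2), for WT (blue) and Chd8L+/- (orange) and group means as bars. Relative to the other 8, the Chd8L+/- mean is 0.53 above WT for Agr2 and 0.80 above for Muc13 (own differences -0.04 and 0.21), and -0.83 for Spink4.

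Across the 12 libraries, the members fell into patterns that differed from gene to gene. Likeness was measured as the root mean square difference of log2 values centred on each gene's mean, with 0 for identical profiles. Values were not scaled, so the measure grows with the spread of a gene as well as with a different order of libraries. *Zg16* and *Muc13* were the closest pair (0.30), followed by *Fcgbp* and *Zg16* (0.37) and *Fcgbp* and *Muc13* (0.44). *Tff3* was closest to *Zg16* (0.49), then to *Clca1* (0.55), *Muc13* (0.58) and *Spink4* (0.61). *Zg16* and *Agr2* differed by 0.54, as did *Agr2* and *Spdef*, and *Clca1* and *Spink4* by 0.57, while *Retnlb* was at least 1.53 from every other member. *Retnlb* also had the widest spread (SD of log2 values 1.41 in WT and 1.94 in *Chd8L*+/- libraries), so its distance does not show a different order of libraries. Among WT libraries its order from low to high was that of *Agr2*. Outside the list, the profile of *Spink4* was most like those of *Ptpn18* (0.41), *Ramp1* (0.44), *Defa28* (0.44), *Coprs* (0.44) and *Tmem38b* (0.45) among 9495 genes. For *Fcgbp* the nearest gene was its paralog *9530053A07Rik* (0.25), and the next were *Sh3pxd2a*, *Lcp1*, *Syk* and *Sema4d* (0.28 each). These are descriptions over libraries that also share their depth and cell make-up.

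**Figure D4:**
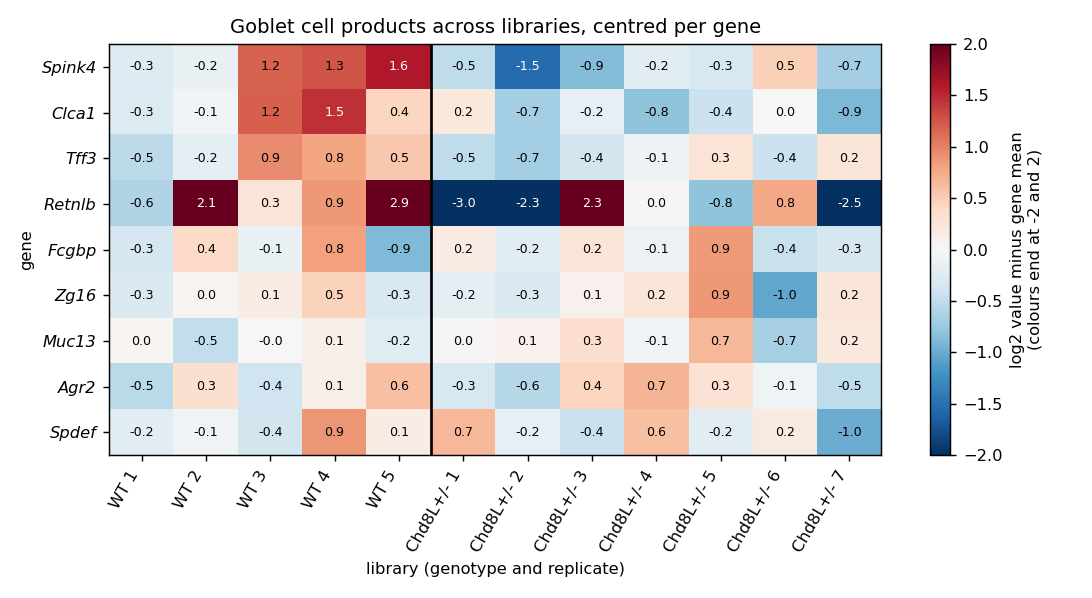
Log2(value + 1) of each member in each library minus the mean of that gene over the 12 libraries (red above, blue below, colours end at -2 and 2), with a line between WT and Chd8L+/-. Spink4, Clca1 and Tff3 are highest in WT replicates 3 to 5, Fcgbp, Zg16 and Muc13 are highest together in Chd8L+/- replicate 5, and Retnlb follows neither pattern.

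Each library name is a letter followed by a number, and what either stands for is not stated. Some numbers recur in both genotypes. Only the letter was examined here. Within letter A, with 2 libraries per genotype, *Spink4* differed by -0.33 on the log2 scale, *Clca1* by -0.32 and *Tff3* by 0.11. Within B, with 2 WT and 1 *Chd8L*+/- library, the differences were -1.75, -1.36 and -0.40. Within C, with 1 WT and 3 *Chd8L*+/- libraries, they were -1.71, -1.35 and -1.49. *Spink4* and *Clca1* thus kept their direction within all 3 letters, with the smallest differences in A, and *Tff3* did not. Within A the genotypes overlapped for both genes. *Spink4* was at 6347 and 6778 in WT against 4153 and 6583 in *Chd8L*+/- libraries, and *Clca1* at 24029 and 27869 against 25925 and 16646. WT replicates 1 and 2, the low WT libraries for these genes, are the 2 WT libraries of letter A, and WT replicates 3 to 5 carry B or C. Among WT libraries the level of these genes thus went with the letter, whose part was not tested. Within B and within C 1 genotype had a single library, and the direction there rests on it. *Retnlb* differed by 0.41 within A, by -2.71 within B and by -1.79 within C. Letter D held a single *Chd8L*+/- library and gives no comparison.

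Related genes of the same families are shown next, since they could share function or reads with the members. Among the calcium-activated chloride channel regulators, *Clca2* had a log2 fold change of -2.55 (limma adjusted p = 0.122), on low counts of 12.2 to 249 in WT and 2.1 to 68.3 in *Chd8L*+/- libraries. *Clca3a1* (1.12), *Clca3a2* (0.96) and *Clca3b* (1.0) had positive values, the opposite sign to *Clca1*. None of these passed (limma adjusted p = 0.128, adjusted p = 0.133 and adjusted p = 0.159). *Clca4a* (0.46) and *Clca4b* (-0.08) did not pass either (limma adjusted p = 0.549 and adjusted p = 0.909). None of the windows of *Clca1* occurred in another gene. *Reg4*, a secreted lectin of goblet and other secretory cells, had a log2 fold change of -1.40 (limma adjusted p = 0.133) and was at 9405 to 16124 in WT replicates 3 to 5 and 1011 to 8870 elsewhere. *Spink1*, a Kazal family relative of *Spink4*, had -0.73 (limma adjusted p = 0.134). *Itln1*, an intelectin of goblet and Paneth cells, had -0.53. The transmembrane mucin gene *Muc4* had 0.71 (limma adjusted p = 0.135).

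Other goblet cell markers gave a mixed picture. Of 37 genes on that list, 26 had negative and 11 positive log2 fold changes with a median of -0.28, and 5 were lower and 1 higher at an unadjusted p of 0.05 or less, beside 11.8% and 12.5% of all genes. With all libraries 0 passed the adjusted p. Without WT replicate 2, 3 were called lower and 1 higher, beside 13.6% and 14% of all genes. The calcium-binding gene *S100a6* had -0.86 (limma adjusted p = 0.124) and the mucin glycosyltransferase gene *Galnt7* 0.41 (limma adjusted p = 0.128). The secretory lineage factor *Atoh1* had -0.24 and the listed goblet cell marker *Rep15* -0.33. Of 18 regulators of goblet cell fate, 7 were below and 11 above 0 (median 0.05), with 1 lower, *Elf3* at -0.47, and 1 higher, *Rest* at 0.31, by the unadjusted p. *Gfi1*, a secretory lineage repressor, had 0.11.

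The machinery that builds and releases mucin was measured as well. Of 38 glycosylation genes, 21 were below and 17 above 0 (median -0.06). By an unadjusted p of 0.05 or less 4 were lower and 4 higher, beside 11.8% and 12.5% of all genes. Both genes with the smallest p encode sialyltransferases, *St3gal6* (-1.20, limma adjusted p = 0.121) and *St6galnac6* (-1.25, limma adjusted p = 0.127). Without WT replicate 2, 5 of the 38 were called lower and 2 higher, beside 13.6% and 14% of all genes. *St3gal6* was among the lower at an adjusted p from limma of 0.00363. Of 32 genes of protein folding in the secretory pathway, 9 were below and 23 above 0 (median 0.17), with 1 lower and 7 higher at the unadjusted p. The protein disulfide isomerases *Pdia6* (0.63, limma adjusted p = 0.122) and *Pdia4* (0.58, limma adjusted p = 0.136) were relatives of *Agr2* with positive values. *Agr3*, another relative, had -0.56 (limma adjusted p = 0.339), on low counts of 18.8 to 35.5 in WT and 5.6 to 31.9 in *Chd8L*+/- libraries. *Ern2*, the stress sensor of mucus-secreting cells, had 0.59 (limma adjusted p = 0.216).

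Of 28 genes of granule release and mucus expansion, 14 lay on each side of 0. At the unadjusted p 4 were lower and 7 higher, beside 11.8% and 12.5% of all genes. The vesicle fusion gene *Vamp8* had -0.55 (limma adjusted p = 0.125), while the transglutaminase gene *Tgm2* had 0.84 (limma adjusted p = 0.121) and the inflammasome gene *Nlrp6* 0.48 (limma adjusted p = 0.124). Leaving out WT replicate 2, 7 were called lower and 8 higher, beside 13.6% and 14% of all genes. Of 14 tested genes of the type 2 cytokine axis, a list that shares *Il25*, *Pou2f3*, *Dclk1* and *Trpm5* with the tuft list, 12 were below 0 (median -1.20) and 8 lower at the unadjusted p. The tuft cell cytokine gene *Il25* was at 5.07 to 67.4 in WT and 0 to 21.9 in *Chd8L*+/- libraries. Among receptor genes, *Il17rb* had -1.46 (limma adjusted p = 0.121) and *Il1rl1* -3.06 (limma adjusted p = 0.168). The receptor genes *Il4ra* (-0.26), *Il13ra1* (-0.22) and *Il2rg* (0.01) were not lower at the unadjusted p. Nor were the signalling genes *Stat6* (-0.15), *Jak1* (-0.0) and *Tyk2* (0.19).

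Markers of other cell types that the preparation could hold also varied. Stromal markers were low throughout, at a summed 191 to 737 normalized counts in WT and 258 to 2987 in *Chd8L*+/- libraries, with 10 of 10 tested genes above 0, and the collagen gene *Col3a1* at 0 in WT replicate 1. Paneth markers summed to 86421 to 144170 and 50086 to 127366, with 8 of 12 below 0. Leukocyte markers summed to 6317 to 10661 and 5595 to 12661, with 10 of 17 below 0, and *Ptprc* was detected in all 12 libraries. Enterocyte markers summed to 498369 to 1054801 and 416171 to 930652, with 13 of 15 below 0. The list of dissociation and stress genes had 17 of 19 below 0, with 2 called lower, beside 0.0234% of all genes. These were the heat shock genes *Hspa1a* (-2.18) and *Hspa1b* (-2.13), each at a limma adjusted p of 0.0375. They made up 2 of the 3 genes called in the whole table. Groups did not overlap for 3 genes of this list, beside 0.515% of all genes. The part of these differences in the levels of the goblet cell products was not tested.

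**Figure D5:**
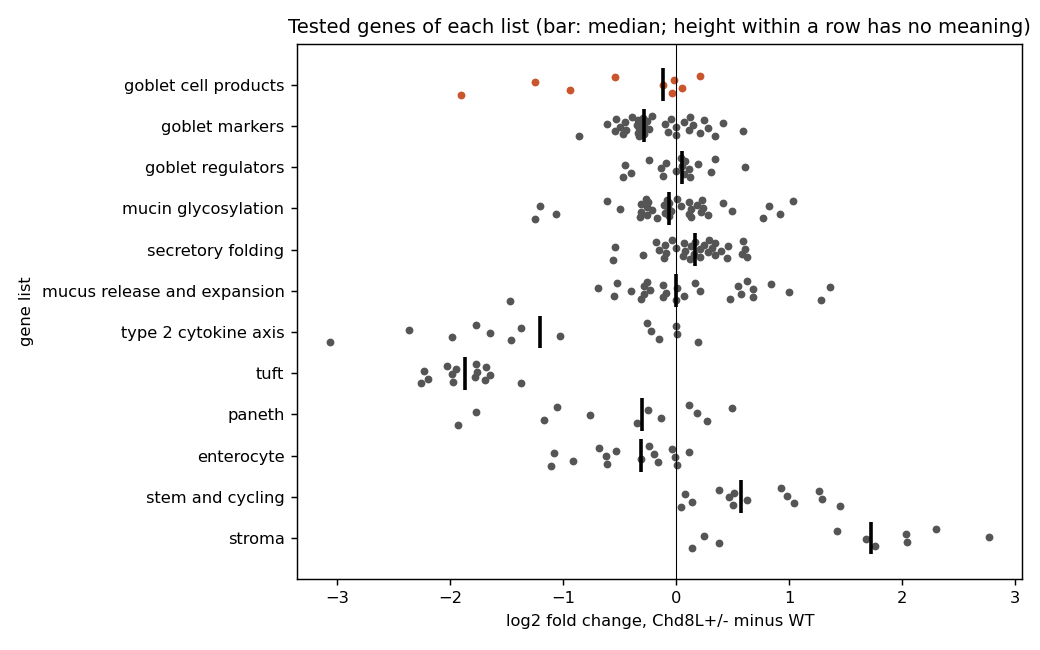
Log2 fold change (Chd8L+/- minus WT) of every tested gene of the goblet cell products (orange) and of other lists (grey), with the list median as a bar. The goblet cell products spread from -1.90 to 0.21 around a median of -0.12, whereas all 14 tuft genes lie below 0 and all 14 stem and cycling genes above.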

How the data were processed

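Poly(A) RNA of gut epithelial cells from 12 mice was sequenced by the authors as single-end reads of 75 bases and mapped to mm10 with Tophat2, and DESeq2 was run. The deposited signal per gene is the reads counted by the authors divided by a size factor of each library. The counting program and its use of strand are not given in the sources used here. Whole reads were recovered from the steps of the values for 100% of values, with a largest deviation of 0.000147 reads, and served only the count tests. Columns of other samples numbered 0.

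The members and gene lists were chosen with earlier results of these data known. Genes with a mean of at least 10 (12808 of 14244) were tested by limma 3.58.1 in R 4.3.3, genotype alone, on log2(value + 1), with Benjamini-Hochberg adjustment over all of them. Fold changes on this scale understate changes of low genes. Single values were compared by the two-sided exact permutation test of the genotype labels. Alternatives were other pseudocounts and filters, edgeR 4.0.16 or DESeq2 1.42.0 run on the recovered reads, quantile normalization, blocks, and leaving out each library. Scripts were tested on simulated data. Beside the members, *Chd8* and relatives of members, genes were named if among the first 2 or the 2 with the smallest p of a list, or if closest in profile. *Reg4*, *Itln1*, *Muc4*, *Epcam*, *Vil1*, *Ptprc*, *Col3a1* and *Gm15657* were chosen by family, as cell markers or by position, with values seen. The receptor and signalling genes of the type 2 cytokine list were also named with values seen. A planned comparison with *Muc2*, and the genes most like it, were replaced by the mean of the other 8 members and by the genes most like *Spink4* and *Fcgbp*. Exon lengths and shared windows come from GENCODE annotation of GRCm38, the assembly of mm10. Coordinates are of that assembly. Every member had at least 43 reads in every library.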

Additional observations from a re-analysis of the deposited data

Results flagged for a closer look

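No member had a library far from the others of its genotype. Among the other genes named, a library stood apart by Dixon's 95% value in 11 of the 114 groups tested (members included), where chance gives about 5.7. On the log2(value + 1) scale, *Clca4b* was low in WT replicate 2 (14.5, others 15.6 to 15.7), as were *Galnt1* (11.3, others 11.8 to 12) and *Stxbp2* (11, others 11.5 to 11.6). *Clca4a* was high in WT replicate 1 (14.2, others 13.2 to 13.5) and *Rep15* low there (7.43, others 8.24 to 8.30). *Galnt2* was low in WT replicate 3 (2.01, others 3.57 to 3.93), and *Atoh1* was high in WT replicate 4 (9.24, others 8.27 to 8.54). *Muc4* was high in Chd8L+/- replicate 3 (11, others 9.43 to 10). The *Fcgbp* paralog *9530053A07Rik* was high in Chd8L+/- replicate 5 (13.2, others 11.1 to 11.9), the library in which *Fcgbp* was also highest. *Clca3b* (11.8, others 12.5 to 13) and *Pdia4* (9.86, others 10.5 to 11) were low in Chd8L+/- replicate 7.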

How the results depend on the processing

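The log2 fold changes of *Spink4*, *Clca1*, *Tff3* and *Retnlb* stayed below 0 and that of *Muc13* above 0 under all 24 alternatives. *Spink4* passed the adjusted p under 5 of them: DESeq2 (-1.32), without WT replicate 2 (-1.47), and, chosen after seeing the data, without that library in edgeR (-1.48), DESeq2 (-1.50) and with the letter block (-1.26). *Clca1* passed under 4, at -1.04, -1.09, -1.16 and -1.19 for the same settings except the letter block, and *Tff3* under 1, DESeq2 without WT replicate 2 (-0.73). Leaving out 1 library gave -1.49 to -1.03 for *Spink4*, -1.15 to -0.71 for *Clca1* and -0.75 to -0.38 for *Tff3*. *Retnlb*, at -1.90 in limma, was -1.33 in edgeR, -1.34 in DESeq2, -1.13 with the letter block and -0.95 with it and without WT replicate 2, and ran from -2.41 (without Chd8L+/- replicate 3) to -1.45 (without WT replicate 5) when 1 library was left out. Members near 0 changed sign. *Zg16* was 0.22 with quantile normalization, 0.063 in edgeR, 0.044 in DESeq2, 0.13 with the replicate block and with the letter block, and 0.074, 0.045 and 0.16 without WT replicate 2 in edgeR, DESeq2 and with the letter block. *Agr2* was 0.17 with quantile normalization, 0.077 with the replicate block and 0.27 with the letter block. Without WT replicate 2, *Agr2* was 0.063 in edgeR, 0.039 in DESeq2 and 0.35 with the letter block. *Spdef* was 0.018 with the replicate block, 0.079 with the letter block and 0.081 with it and without WT replicate 2, and *Fcgbp* was -0.004 in DESeq2. Leaving out 1 library gave -0.16 to 0.26 for *Fcgbp*, -0.17 to 0.15 for *Zg16*, -0.17 to 0.11 for *Agr2* and -0.24 to 0.078 for *Spdef*. The median of the members ran from -0.244 to 0.081. Against the other 8 members, *Tff3* ranged from -0.20 to 0.13. The cause was not tested.

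Over all genes, 3 calls became 5 in edgeR, 811 in DESeq2, 451 with the letter block and 0 to 3534 when 1 library was left out. Without WT replicate 2, edgeR called 3365 genes, DESeq2 4112 and the letter block 3316. Replicate numbers gave no pairing, since same-numbered libraries deviated with correlations of -0.34 to 0.19, and with the replicate block limma called 0 genes, 2327 having an unadjusted p of 0.05 or less. The comparison with *Muc2* was not run.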
